A study of Homo sapiens with 6 samples.

Results

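The nuclear hormone receptor family was described here in HS578T cells, a breast cancer line with mesenchymal features. The family was defined by gene symbol, and membership uses no measured value. Measured values enter the rule for choosing a probe set and the split by the array median. The family was chosen for description with earlier results of these data known. The list held 46 receptor genes, and each was represented by the probe set of that symbol with the highest mean over all arrays. A named probe set was found for 39 of the 46, each gene by a single probe set, among 17687 named genes and 21448 probe sets in all. The other 7 (NR1H2, NR1H4, NR1I2, HNF4A, RXRA, NR2F2 and NR0B1) were not analysed here.

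The cells of the EP300 group carried the expression vector pcDNA 3 with EP300 cDNA, and the cells of the control group carried pcDNA 3 alone (the empty vector). Both groups were stable transfectants kept under G418 as pools of at least 200 clones, grown in low-glucose DMEM with fetal calf serum, glutamine and insulin. RNA from 3 cultures of each group was hybridised to 1 array per culture. The labels do not say whether the cultures of a group came from separate transfections, so p-values measure the spread between cultures. EP300 encodes a lysine acetyltransferase and transcriptional co-activator, and the comparison asks which receptor transcripts differ in cells that carry its cDNA. No named probe set carries the symbol EP300, so the vector label could not be checked by the level of its own gene.

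Nuclear receptors are transcription factors with a DNA-binding domain of zinc fingers and a domain that binds lipophilic ligands such as steroids, thyroid hormone, retinoids, vitamin D or fatty acids. Ligand binding exchanges corepressor complexes, which carry histone deacetylases, for co-activators of the p160 family and the acetyltransferases EP300 and CREBBP. Orphan members have no established physiological ligand. In breast tissue the estrogen and progesterone receptors mark luminal cells, and basal and mesenchymal lines such as HS578T are known for lacking them.

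All values below are the authors' deposited values, taken as log2, and differences are EP300 vector minus empty vector on that scale. Array medians lay between 4.456 and 4.497. Of 13 mesenchymal markers 12 lay above the array median, among them VIM at 18.6 on every array. Of 14 luminal markers 5 did (GATA3, KRT8, KRT18, XBP1 and MUC1). The defining epithelial genes EPCAM and CDH1 averaged 3.48 and 2.90 over the 6 arrays. Markers of leukocytes had 3 of 9 above the median (CD3E at 4.67, CD79A at 4.82 and CD68 at 6.72), those of endothelium 1 of 8 (VWF at 4.88) and those of adipocytes 0 of 6. A value between 4.5 and 4.9 was therefore also seen for genes of cell types foreign to the line, and CD68 lay above that range. The background of each probe set is unknown, and values of different probe sets were not ranked against each other.

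Of the 39 receptors, 16 had a mean over the 6 arrays above the mean of the array medians (4.48), and 23 lay below it. On every single array 15 of the 16 exceeded that array's median, and the exception was ESR1, which did so on 4 of 6. Above the upper quartile lay 6 receptors. Values on each array are shown in the plot of receptor values by culture.

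**Figure D1:**
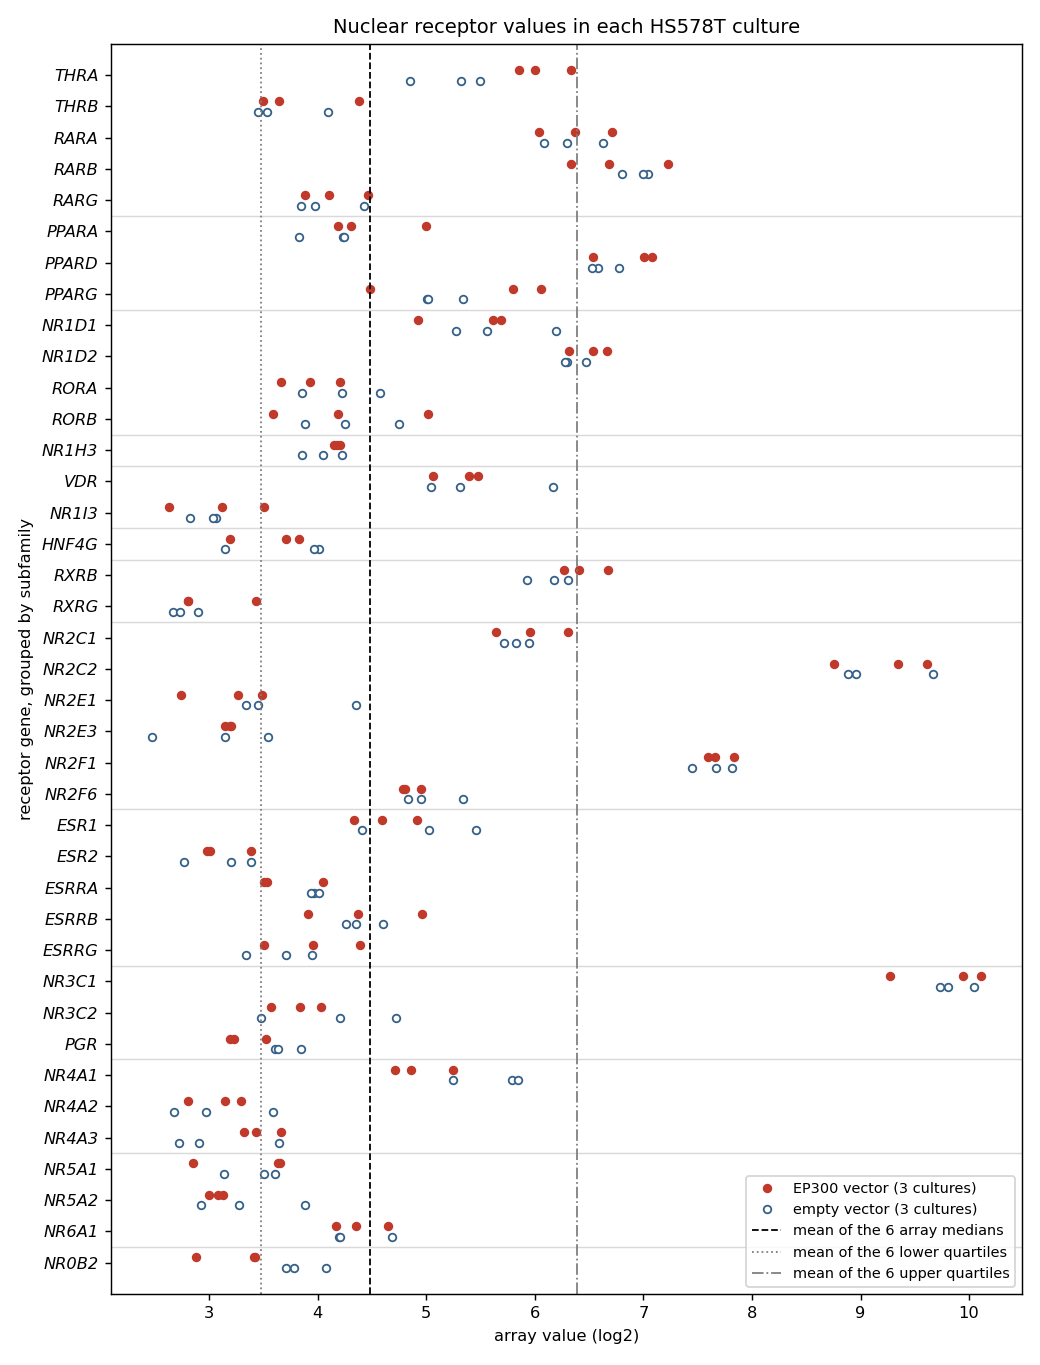
Values of the 39 receptors on each array (x axis, log2), with the 3 EP300 vector cultures (filled) drawn above the 3 empty vector cultures (open) for each gene and subfamilies separated by lines. Dashed and dotted lines mark the means of the array medians and quartiles; 16 receptors have a mean above the median line, and the groups overlap for 35 receptors.

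No receptor passed the adjustment over all probe sets. By limma 0 of 39 receptors and 0 of 21448 probe sets (0%) had a Benjamini-Hochberg adjusted p under 0.05, and the lowest adjusted p of a receptor was 0.735, for THRA. At an unadjusted p under 0.05 there were 3 receptors (7.69%), against 6.52% of all probe sets: THRA was higher in EP300 vector cultures, where 3.45% of all probe sets were higher at that level, and NR4A1 and NR0B2 were lower, against 3.07%. The groups did not overlap for 4 receptors (10.3%), these 3 and PGR, against 12.2% of all probe sets: THRA on the higher side, against 6.3% of all probe sets, and PGR, NR4A1 and NR0B2 on the lower side, against 5.91%. These shares are close to those of the whole array. With each array left out in turn, THRA kept an unadjusted p under 0.05 in all 6 fits, while NR4A1 and NR0B2 did not, and the count of receptors ran from 2 to 4. Because RNA came from whole cultures, a difference in every cell and a difference in the share of cells that express a gene cannot be told apart.

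As a family the receptors did not stand to one side. Of the 39, 22 were higher and 17 lower in EP300 vector cultures, and 50.2% of all probe sets were higher. The median difference was 0.0128 for the receptors and 0.00098 for all probe sets, and the median absolute difference was 0.19 and 0.20. The precision was also like that of the array as a whole, with a median standard error of 0.26 for the receptors and 0.25 for all probe sets. The 95% interval lay within 1 log2 unit of 0 on both sides, that is within a doubling or halving, for 32 receptors (82.1%) and for 77.3% of all probe sets. The intervals of the remaining 7 reach beyond that bound.

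**Figure D2:**
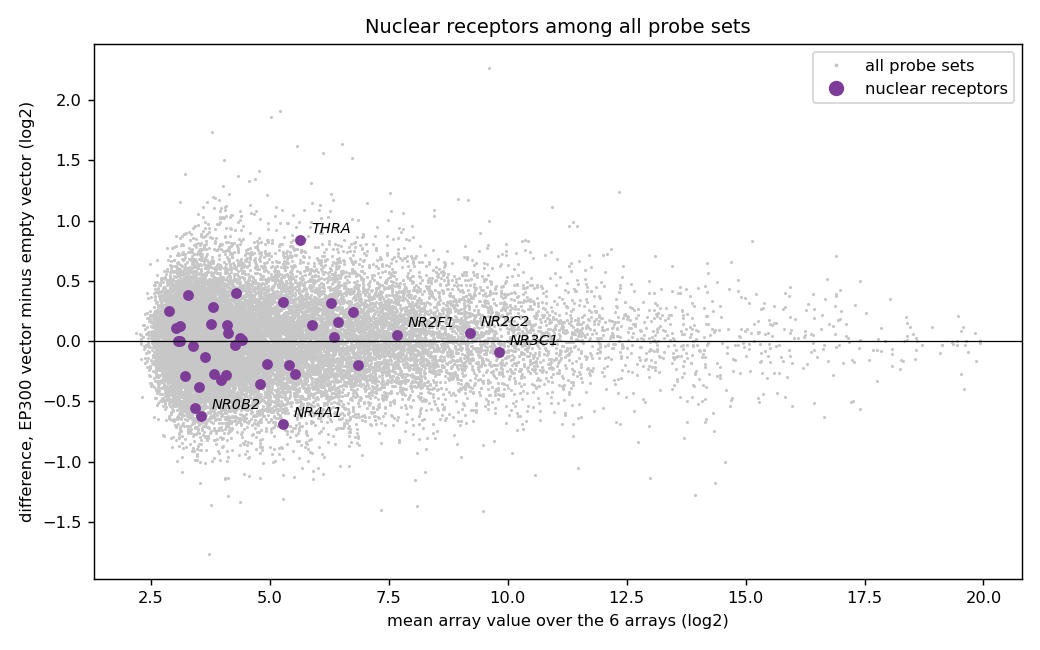
Difference between groups (y axis, log2, EP300 vector minus empty vector) against the mean over the 6 arrays (x axis, log2) for all 21448 probe sets in grey and the 39 receptors in purple. The receptors run from -0.69 (NR4A1) to 0.84 (THRA), inside the cloud of all probe sets, which runs from -1.77 to 2.26.

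**Figure D3:**
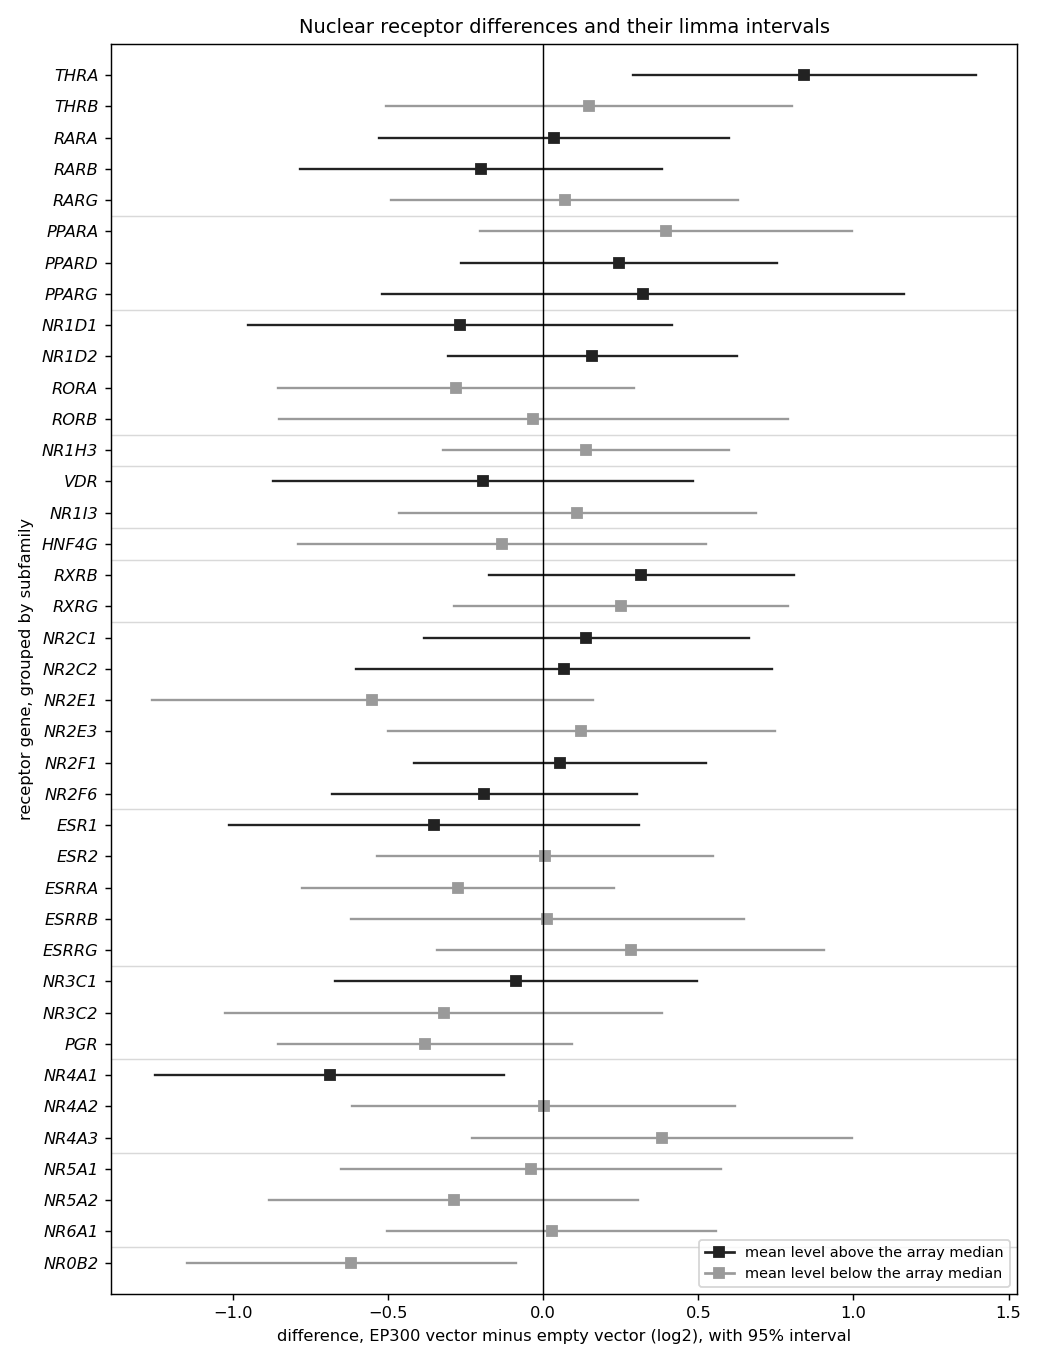
Difference (squares, log2, EP300 vector minus empty vector) and limma 95% interval (lines) of each receptor, in black for a mean level above the array median and grey below it. The intervals of THRA, NR4A1 and NR0B2 leave out 0 before adjustment, and those of the other 36 include it.

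THRA, which encodes thyroid hormone receptor alpha, a receptor for triiodothyronine, read 5.853, 6.003 and 6.334 in the 3 EP300 vector cultures, against 4.853, 5.316 and 5.496 in the 3 empty vector cultures. All EP300 vector arrays lay above all empty vector arrays. The means were 6.06 ± 0.25 with the EP300 vector and 5.22 ± 0.33 with the empty vector (SD, n = 3 each). The difference was 0.84 ± 0.25 (SE), with a limma adjusted p of 0.735. Empty vector replicate 1 lay in the range also seen for genes foreign to the line, so no fold is given. An exact permutation test, two-sided, gave 0.1, which is the lowest p possible with 3 cultures against 3. Without 1 array at a time the difference ran from 0.66 to 0.98, and over all alternative settings the limma adjusted p ran from 0.573 to 0.866. THRB, the beta receptor, lay below the array median and differed by 0.15 ± 0.29, so that its interval (-0.51 to 0.80) holds both 0 and values close to that of THRA. The difference between the responses of THRA and THRB was not tested.

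The THRA gene overlaps NR1D1 on chromosome 17 in the RefSeq annotation, where the genes lie on opposite strands. NR1D1, which encodes REV-ERB alpha, a heme-binding repressor of the circadian clock, read 4.92, 5.61 and 5.69 with the EP300 vector, against 6.20, 5.27 and 5.56 with the empty vector. The groups overlapped, and the difference of -0.27 ± 0.30 (SE) was -0.0072 without empty vector replicate 1, the array with the highest value. Its paralog NR1D2 (REV-ERB beta) read 6.54, 6.32 and 6.67, against 6.30, 6.28 and 6.47, and also overlapped (0.16 ± 0.21 SE). Signal shared between the THRA and NR1D1 probe sets was not tested. RORA and RORB, activators that bind the same DNA elements as the REV-ERBs, lay below the array median, at differences of -0.28 and -0.03, and RORA was at -0.10 without empty vector replicate 3.

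The windows of promoter sequence around the start of transcription are shown for THRA, the receptor with the lowest p, and for NR1D2 and CIART as examples of clock genes whose windows hold E-boxes, chosen for that reason. Sequences are those of RefSeq on GRCh38.p14, 250 bases before to 50 after a gene's start, 5′ to 3′ on the gene's strand, and all 3 genes lie on the plus strand. Capitals mark GGGCGG (the GC box, bound by SP factors), CACGTG (the E-box, bound by CLOCK and its partner) or AGGTCA (the hexamer that many receptors bind), on either strand, with overlapping matches all marked. THRA is shown at chr17:40062715-40063014, NR1D2 at chr3:23945871-23946170 (the second of 2 windows) and CIART at chr1:150282304-150282603.
THRA: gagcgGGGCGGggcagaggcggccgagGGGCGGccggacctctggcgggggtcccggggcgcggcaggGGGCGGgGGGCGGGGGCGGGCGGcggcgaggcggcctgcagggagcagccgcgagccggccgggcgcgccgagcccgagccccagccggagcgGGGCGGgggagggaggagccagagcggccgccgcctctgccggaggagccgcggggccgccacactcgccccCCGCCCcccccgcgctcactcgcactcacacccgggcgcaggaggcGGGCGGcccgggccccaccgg
NR1D2: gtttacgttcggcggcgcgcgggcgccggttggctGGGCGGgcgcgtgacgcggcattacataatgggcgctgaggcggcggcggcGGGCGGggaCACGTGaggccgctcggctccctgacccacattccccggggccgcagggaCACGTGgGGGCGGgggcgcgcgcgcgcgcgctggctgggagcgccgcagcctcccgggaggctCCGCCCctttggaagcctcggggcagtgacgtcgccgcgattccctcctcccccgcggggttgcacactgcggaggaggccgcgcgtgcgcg
CIART: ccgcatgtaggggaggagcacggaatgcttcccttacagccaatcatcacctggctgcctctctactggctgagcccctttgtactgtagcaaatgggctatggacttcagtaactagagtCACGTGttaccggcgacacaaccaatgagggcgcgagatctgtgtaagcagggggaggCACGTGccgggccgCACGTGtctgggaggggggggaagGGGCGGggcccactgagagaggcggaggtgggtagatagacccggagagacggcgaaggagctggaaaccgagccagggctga
The THRA window is 86.3% G and C and holds 9 GC boxes, no E-box and no AGGTCA. The NR1D2 window holds 2 E-boxes and 4 GC boxes, and the CIART window 3 E-boxes and 1 GC box. The other NR1D2 window holds no E-box, and neither do those of NR1D1, DBP and PER3. Over the 14 measured clock genes with NR1D1 and NR1D2, 5 of 16 genes (BHLHE40, BHLHE41, CIART, NR1D2 and TEF) and 6 of 24 windows hold an E-box. No window of NR1D1, NR1D2, DBP, TEF, PER3 or CIART holds AGGTCA. The table had windows for 34 of the 39 receptors, 85 in all. AGGTCA was in 14 of them (16.47%), spread over 9 receptors (ESR2, ESRRG, NR1H3, NR2E1, NR5A2, PPARG, RARA, RARB and RXRG), against 13.83% of all 35116 windows. CACGTG was in 8 (9.41%), against 7.26% of all, and GGGCGG in 42 (49.41%), against 44.95%. Neither of the 2 NR4A1 windows held AGGTCA or CACGTG. A match is a string of letters and no evidence of binding.

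Retinoic acid receptors partner with retinoid X receptors on DNA. RARA read 6.71, 6.04 and 6.37 in EP300 vector cultures, against 6.30, 6.63 and 6.09 in empty vector cultures. RARB, itself a target of retinoic acid in many cells, read 6.68, 6.33 and 7.23, against 6.80, 7.04 and 7.0. Both sets of values overlapped, with differences of 0.03 (95% interval -0.53 to 0.60) and -0.20 (-0.78 to 0.38). RARG lay below the array median at 4.15 ± 0.29 with the EP300 vector and 4.08 ± 0.31 with the empty vector (SD, n = 3 each). RXRB, a shared partner of many receptors, read 6.27, 6.41 and 6.68 in EP300 vector cultures, against 6.18, 6.30 and 5.93 in empty vector cultures. The groups overlapped only in that EP300 vector replicate 1 lay below empty vector replicate 2, and the difference was 0.32 ± 0.22 (SE, limma adjusted p = 0.856). RXRG, at 3.02 with the EP300 vector and 2.76 with the empty vector, lay under the arrays' lower quartile.

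The PPARs are receptors for fatty acids and their derivatives. PPARD read 7.083, 7.003 and 6.534 with the EP300 vector, against 6.583, 6.531 and 6.775 with the empty vector, a difference of 0.24 ± 0.23 (SE) that was 0.14 without EP300 vector replicate 1. PPARG, the adipocyte regulator, read 5.80, 6.06 and 4.48 in EP300 vector cultures, against 5.01, 5.34 and 5.01 in empty vector cultures. Its EP300 vector replicate 3 lay below all empty vector arrays, while replicates 1 and 2 lay above them. The SD of 0.85 within the EP300 group was the largest of any receptor in either group, and the difference was 0.32 ± 0.38 (SE). Without EP300 vector replicate 3 it was 0.80, and without EP300 vector replicate 2 it was 0.0155, so single arrays decide its size. PPARA averaged 4.498 ± 0.44 with the EP300 vector and 4.10 ± 0.24 with the empty vector (SD, n = 3 each), a difference of 0.40 that was at 0.15 without EP300 vector replicate 1. All 3 PPARs were higher in EP300 vector cultures, and none passed the test.

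NR4A receptors are immediate early genes whose proteins act without a classical ligand. NR4A1 (NUR77) read 4.86, 5.24 and 4.71 with the EP300 vector, against 5.25, 5.79 and 5.84 with the empty vector. The groups did not overlap, but the highest EP300 vector value (5.2439) and the lowest empty vector value (5.2455) nearly coincided. The means were 4.94 ± 0.27 and 5.63 ± 0.33 (SD, n = 3 each), EP300 vector first. EP300 vector replicates 1 and 3 lay in the range also seen for genes foreign to the line, so no fold is given. The difference was -0.69 ± 0.25 (SE, limma adjusted p = 0.746), it ran from -0.88 to -0.58 without 1 array at a time, and the adjusted p ran from 0.581 to 0.877 over all settings. NR4A2 averaged 3.08 with the EP300 vector and 3.08 with the empty vector, and NR4A3 3.47 and 3.09, values near or under the arrays' lower quartile. The 3 paralogs thus did not share a direction, and no difference between them was tested.

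Among the steroid receptors, NR3C1, which encodes the glucocorticoid receptor, read 9.94, 10.11 and 9.28 in EP300 vector cultures, against 9.81, 10.05 and 9.73 in empty vector cultures, and lay above the upper quartile on each array. The groups overlapped. NR3C1 differed by -0.09 (95% interval -0.67 to 0.50), and by 0.16 without EP300 vector replicate 3, the lowest array. NR3C2, the mineralocorticoid receptor, averaged 3.81 ± 0.23 with the EP300 vector and 4.13 ± 0.63 with the empty vector (SD, n = 3 each). Among the sex steroid receptors, ESR1 (estrogen receptor alpha) read 4.34, 4.91 and 4.59, against 4.41, 5.03 and 5.46, which straddles the array median. ESR1 differed by -0.35 ± 0.30 (SE), and by -0.11 without empty vector replicate 3. ESR2 averaged 3.12 ± 0.23 with the EP300 vector and 3.12 ± 0.32 with the empty vector (SD, n = 3 each), below the lower quartile. PGR, the progesterone receptor and a known estrogen receptor target, read 3.53, 3.19 and 3.23, against 3.61, 3.85 and 3.63, without overlap (difference -0.38 ± 0.21 SE, limma adjusted p = 0.809). The 5 steroid receptors had a median difference of -0.32, with ESR2 as the 1 member above 0, and 0 of them had an unadjusted p under 0.05. Without empty vector replicate 3 that median was -0.15, with NR3C2 at -0.03 and ESR2 at -0.17.

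**Figure D4:**
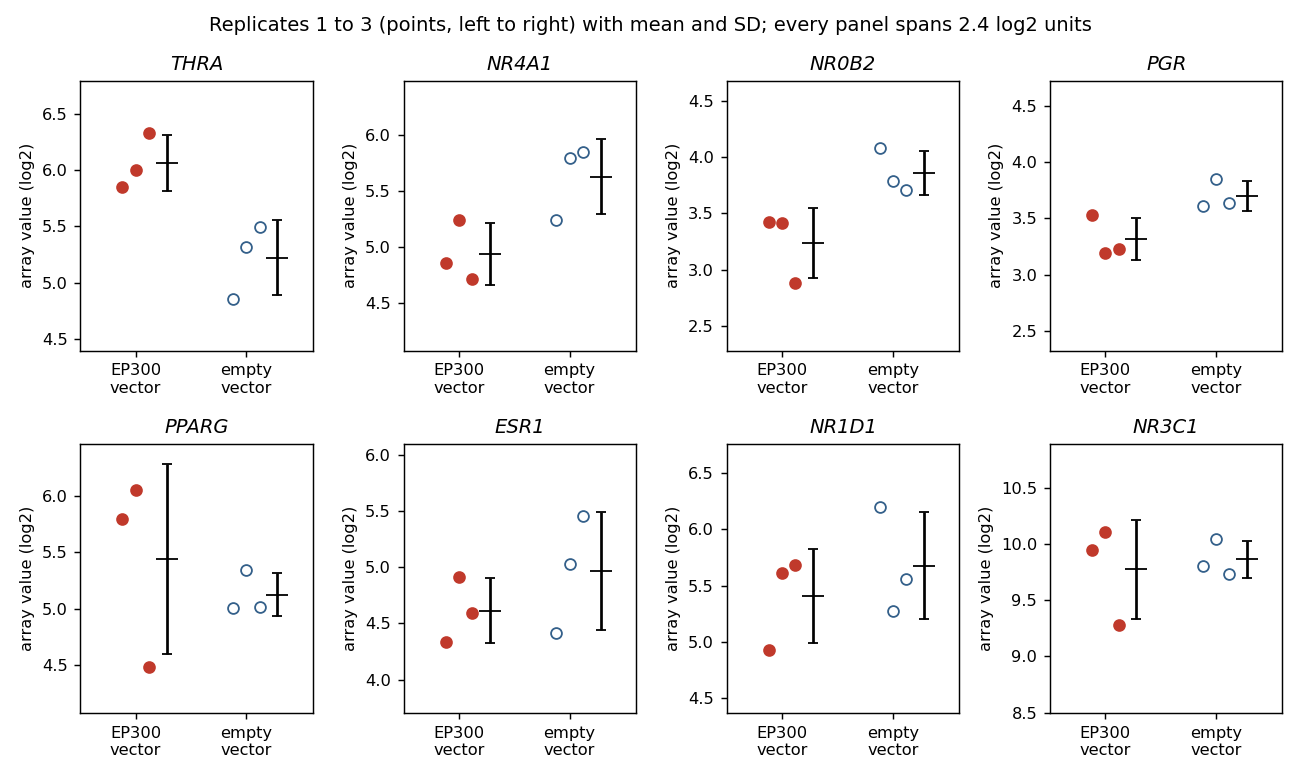
Values of 8 receptors on each array (y axis, log2), replicates 1 to 3 from left to right within a group, with the mean and SD beside them. THRA, NR4A1, NR0B2 and PGR have groups that do not overlap, PPARG and NR3C1 have an EP300 vector replicate 3 below all other arrays, and ESR1 and NR1D1 overlap.

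Estrogen-related receptors are orphans that control genes of oxidative metabolism with the co-activator PGC-1. ESRRA averaged 3.70 ± 0.31 in EP300 vector cultures and 3.97 ± 0.04 in empty vector cultures (SD, n = 3 each). ESRRB averaged 4.42 and 4.40, and ESRRG 3.95 and 3.67, in the same order. All 3 lay below the array median, and their intervals include 0.

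Several orphans of the NR2 group lay above the array median. NR2C2 (TR4) read 8.75, 9.61 and 9.35 with the EP300 vector, against 8.96, 8.88 and 9.67 with the empty vector. NR2C1 (TR2), with which TR4 forms heterodimers, read 5.64, 5.95 and 6.31, against 5.82, 5.95 and 5.71. NR2F1 (COUP-TFI), which often acts as a repressor, read 7.66, 7.84 and 7.60, against 7.45, 7.81 and 7.67. These 3 receptors overlapped between groups, with differences of 0.07, 0.14 and 0.05. The interval of NR2F1, from -0.42 to 0.53, was among the narrower ones, and its SD was 0.12 with the EP300 vector and 0.18 with the empty vector. NR2F6 (EAR2) read 4.81, 4.79 and 4.95, against 4.83, 4.95 and 5.34, a difference of -0.19 ± 0.22 (SE) that was -0.04 without empty vector replicate 3. NR2E1 (tailless), known from neural stem cells, averaged 3.16 and 3.72 in the same order of groups, and NR2E3, a photoreceptor gene, 3.18 and 3.06. NR2E1 differed by -0.55 ± 0.32 (SE, limma adjusted p = 0.817), and by -0.23 without empty vector replicate 2.

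VDR, the vitamin D receptor, read 5.39, 5.48 and 5.07 in EP300 vector cultures, against 5.31, 6.17 and 5.05 in empty vector cultures. The difference of -0.19 ± 0.30 (SE) turned to 0.14 without empty vector replicate 2, the highest array. NR1H3 and NR1I3 lay below the array median. NR1H3 (LXR alpha, an oxysterol receptor) averaged 4.18 ± 0.03 with the EP300 vector and 4.04 ± 0.19 with the empty vector (SD, n = 3 each), and NR1I3 (CAR, a xenobiotic receptor) 3.09 ± 0.44 and 2.98 ± 0.13.

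NR0B2 (SHP) lacks a DNA-binding domain and represses other receptors. It read 3.42, 3.42 and 2.88 with the EP300 vector, against 4.08, 3.79 and 3.71 with the empty vector. The groups did not overlap, with a difference of -0.62 ± 0.24 (SE, limma adjusted p = 0.748, and 0.707 to 0.877 over all settings). Both groups lay below the array median, and the EP300 vector arrays lay below the lower quartile (3.47 to 3.50), so no fold is given. NR5A1 (SF-1), the regulator of steroidogenic tissues, averaged 3.38 ± 0.46 and 3.42 ± 0.25 (SD, n = 3 each), EP300 vector first. NR5A2 (LRH-1) averaged 3.07 and 3.36, NR6A1 (GCNF), a germ cell factor, 4.39 and 4.36, and HNF4G, of the HNF4 group of liver and gut, 3.58 and 3.71, in the same order.

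Transcripts around the receptors were read from 13 lists of co-regulators, chaperones, ligand enzymes and target genes. No list member had a limma adjusted p under 0.05 (0 in all 13 lists). Counts below are at an unadjusted p under 0.05, to be read against 6.52% of all probe sets. List genes were named by their p, which favours groups without overlap. Of all probe sets 12.2% had no overlap. Among 25 measured co-activators and integrators 1 was higher and 0 lower, with a list median of 0.06. NCOA7, an estrogen receptor co-activator, read 7.06, 8.17 and 7.02 in EP300 vector cultures, against 6.08, 6.80 and 6.71 in empty vector cultures. The groups did not overlap, and its difference of 0.89 ± 0.34 (SE, limma adjusted p = 0.748) was at 0.51 without EP300 vector replicate 2. Among 15 corepressors and deacetylases 0 were higher and 2 lower, with a list median of -0.00289. SIN3A, the scaffold of a deacetylase complex, read 5.76, 5.76 and 5.46, against 6.09, 6.08 and 6.41. HDAC3, the deacetylase of the NCoR complexes, read 7.31, 7.86 and 7.55, against 8.30, 7.95 and 8.06. Both were lower without overlap, by -0.53 in each case, at limma adjusted p of 0.748 and 0.765. The other listed deacetylases HDAC1, HDAC2 and HDAC7 had positive differences of 0.49, 0.51 and 0.49 (unadjusted limma p from 0.081 to 0.111). Of the 15 genes 7 had a positive and 8 a negative difference, so neither the list nor its deacetylases shared a direction. Of 10 chaperones of steroid receptors 0 had an unadjusted p under 0.05, and ST13, a partner of HSP70, had the smallest at a difference of 0.39.

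Among 14 genes of retinoid metabolism and binding 2 were higher and 1 lower (21.4% in all), with a list median of 0.04. ALDH1A1 and ALDH1A2 make retinoic acid from retinaldehyde. ALDH1A1 read 5.45, 4.35 and 5.29 with the EP300 vector, against 4.26, 3.54 and 3.18 with the empty vector. ALDH1A2 read 4.97, 4.45 and 5.30, against 3.75, 3.66 and 4.08. Neither gene overlapped between groups, with differences of 1.37 ± 0.36 and 1.08 ± 0.26 (SE, limma adjusted p of 0.735 for both). For both genes the empty vector mean, the mean over all arrays and EP300 vector replicate 2 lay below the array median. CYP26C1, which degrades retinoic acid, was at 3.24 ± 0.35 and 3.89 ± 0.09 (SD, n = 3 each), EP300 vector first, also without overlap. Of 15 measured target genes of retinoic acid receptors 0 had an unadjusted p under 0.05, with a median of -0.04. The smallest p there was that of CRABP2, a carrier of retinoic acid, at a difference of -0.37.

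Of 24 enzymes of steroid, thyroid hormone and vitamin D metabolism 1 was higher and 2 lower, with a median of -0.11, and 18 of the 24 had a negative difference. DIO2, the deiodinase that makes triiodothyronine from thyroxine, read 7.06, 6.64 and 5.94 with the EP300 vector, against 5.86, 5.98 and 5.05 with the empty vector. EP300 vector replicate 3 lay within the range of the empty vector arrays. The difference was 0.92 ± 0.34 (SE, limma adjusted p = 0.746), or 0.63 without empty vector replicate 3. STS, which releases estrogens and other steroids from their sulfates, averaged 5.10 ± 0.38 and 5.84 ± 0.53, and HSD17B7, an enzyme of estradiol and cholesterol synthesis, 4.84 ± 0.10 and 5.41 ± 0.18 (SD, n = 3 each), EP300 vector first.

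Target genes of the glucocorticoid receptor went both ways, with 1 of 17 higher, 1 lower and a median of 0. That median is the value of MT2A, a metallothionein gene at the ceiling of the scale that cannot show a difference, and over the other 16 the median was -0.00874. ERRFI1, an inhibitor of the EGF receptor, read 12.70, 13.21 and 12.99 in EP300 vector cultures, against 11.88, 11.48 and 11.83 in empty vector cultures. SGK1, a kinase named for its induction by serum and glucocorticoids, read 7.89, 7.88 and 7.96, against 9.28, 8.12 and 8.72. Both genes split the groups completely, ERRFI1 by 1.24 ± 0.23 (SE, limma adjusted p = 0.476) and SGK1 by -0.80 ± 0.29 (0.746), or -0.51 without empty vector replicate 1. The adjusted p of ERRFI1 ran from 0.0541 with a variance trend to 0.866.

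Among 20 estrogen receptor target genes 1 was higher and 3 lower (20% in all), with a median of -0.15. CCND1, encoding cyclin D1, read 10.93, 10.89 and 11.28 with the EP300 vector, against 11.56, 11.96 and 11.64 with the empty vector. EGR3, an immediate early gene, was at a difference of -0.62 (-0.38 without empty vector replicate 3), XBP1, a factor of secretory cells, at -0.50, and the chemokine gene CXCL12 at 0.55. None of these 4 genes overlapped between groups, and limma gave them adjusted p from 0.738 to 0.765. Of the 14 luminal markers 0 were higher and 3 lower (21.4%) at an unadjusted p under 0.05. The 3 were KRT18 at -1.11, MUC1 at -0.93 and XBP1, a gene of both lists. Whatever their p, 7 of the 14 had a positive and 7 a negative difference, with a median of -0.04. Of the 13 mesenchymal markers 1 was higher and 2 lower (23.1%) at an unadjusted p under 0.05. The higher one was SNAI2 at 0.71, and the lower ones were THY1 at -0.75 and COL1A2 at -0.49. Whatever their p, 4 of the 13 had a positive and 8 a negative difference, with a median of -0.16. VIM read the same on every array and cannot show a difference, and TGFBI was at the ceiling of the scale on the empty vector arrays. The mean of the luminal markers ran from 4.75 to 4.91 over the EP300 vector arrays and from 4.90 to 4.98 over the empty vector arrays, and their part in the values of the estrogen receptor targets was not tested.

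The circadian clock list, which holds genes of the clock in which the REV-ERBs and RORs take part, had the lowest median of the 13 lists. Of 14 genes 1 was higher and 3 lower (28.6% in all), 10 had a negative difference, and the median was -0.33. DBP and TEF encode related transcription factors of the clock's output. DBP read 4.64, 4.90 and 4.12 in EP300 vector cultures, against 5.13, 5.48 and 4.92 in empty vector cultures. TEF read 3.67, 3.95 and 3.19, against 4.85, 4.74 and 3.62. CIART, a repressor of CLOCK whose promoter window with 3 E-boxes is printed above, read 4.96, 5.07 and 4.69, against 5.62, 5.45 and 5.52. DBP and CIART did not overlap between groups, while TEF did, and the differences were -0.62, -0.80 and -0.62 for DBP, TEF and CIART. The mean of TEF over all arrays lay below the array median, as did EP300 vector replicate 3 of DBP. EP300 vector replicate 1 of DBP and EP300 vector replicate 3 of CIART lay in the range also seen for genes foreign to the line. DBP was at -0.40 without EP300 vector replicate 3. PER3, a period gene, was higher by 0.53 ± 0.21 (SE) without overlap, so the list did not share a direction. Limma gave adjusted p from 0.740 to 0.765 for this group of 4. The labels give no time of harvest, and its part in these values was not tested.

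The remaining lists concern lipid-sensing receptors, vitamin D and the orphans. Of 20 PPAR targets 1 was higher, CPT1B, a carnitine palmitoyltransferase (0.70 ± 0.28 SE), with a list median of 0.02. Of 17 LXR and FXR targets 2 were lower, SCD, a desaturase of fatty acids, and NR0B2, with a median of -0.19. SCD read 12.57, 12.53 and 12.17 in EP300 vector cultures, against 13.55, 13.55 and 13.57 in empty vector cultures. Of 12 vitamin D targets 1 was lower, IGFBP3, which binds insulin-like growth factors, with a median of 0.04. IGFBP3 read 13.27, 13.41 and 13.24, against 14.26, 14.64 and 14.84. Of 15 NR4A and ERR targets 0 had an unadjusted p under 0.05, and ENO3, the muscle enolase, had the smallest at a difference of 0.38. In the reported fit IGFBP3 and SCD had limma adjusted p of 0.436 and 0.476, and up to 0.866 over the alternative settings. Both passed the adjustment over all probe sets with a variance trend and robust estimation (limma adjusted p of 0.034 and 0.0435), and in no other setting.

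**Figure D5:**
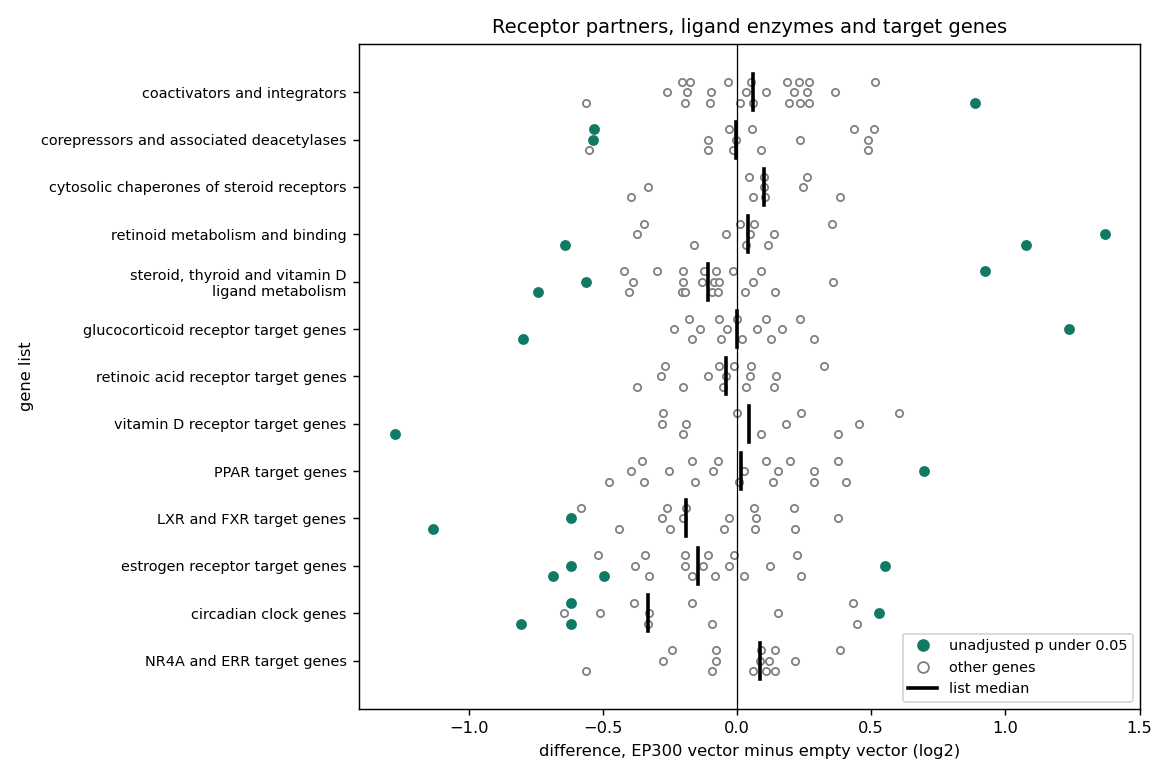
Difference of each measured gene of the 13 lists (x axis, log2, EP300 vector minus empty vector), filled where the unadjusted limma p is under 0.05, with the list median as a bar. Medians run from -0.33 for the circadian clock genes to 0.10 for the chaperones.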

How the data were processed

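Qiagen RNeasy extraction and Affymetrix WT PLUS labelling are named in the labels' protocols, and Partek 6.6 in the submitters' processing notes. How the authors corrected background, normalized and summarised, and which genome build they used, is not given in the sources used here. By their range, with a ceiling of 19.93, the deposited values were taken as log2, and no receptor reached the ceiling. Probe sets were named from the platform annotation (17709 named, 3739 not).

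The 3 EP300 vector arrays were compared with the 3 empty vector arrays by limma 3.58.1 (lmFit, eBayes) in R 4.3.3, on all 21448 probe sets without filter or covariate, with Benjamini-Hochberg adjustment over all of them. The fit was tested on data simulated under its own error model, which cannot show whether that model suits these arrays. Errors of differences are moderated standard errors. The number of arrays limits the precision. Members and lists were chosen with earlier results of these data known. Named by rule were all receptors, and from each list the genes with an unadjusted p under 0.05, at most 4, or the gene with the smallest p. Alternatives were quantile normalization, median centring, a level filter, 1 probe set per gene, a variance trend, a replicate block and leaving out each array.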

Additional observations from a re-analysis of the deposited data

How the results depend on the processing

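Over the 12 alternatives to the reported fit 0 receptors passed the adjusted threshold, and the count at an unadjusted p under 0.05 stayed between 2 and 4, against 3. THRA was among them in every setting, NR4A1 was not without EP300 vector replicate 1, EP300 vector replicate 3, empty vector replicate 2 or empty vector replicate 3, and NR0B2 was not without EP300 vector replicate 3 or empty vector replicate 1, and it was not tested with the level filter. With a variance trend and robust estimation 4 probe sets of the array passed, none of them a receptor, against 0 in the other settings. With the upper quartile in place of the median, 6 receptors in place of 16 lay above the level, and 15 lay above the median on every array. The median difference of the receptors ran from -0.0295 to 0.0602 without 1 array at a time. Of the 39 receptors 21 kept their direction in every setting run, as did all 25 partner genes, and 18 turned with 1 array left out, with these ranges of differences: THRB (-0.12 to 0.35), RARA (-0.13 to 0.20), RARB (-0.44 to 0.00671), RARG (-0.0886 to 0.24), RORB (-0.41 to 0.31), VDR (-0.42 to 0.14), NR1I3 (-0.10 to 0.34), HNF4G (-0.42 to 0.0602), NR2C1 (-0.0308 to 0.30), NR2C2 (-0.12 to 0.31), NR2E3 (-0.17 to 0.37), NR2F1 (-0.044 to 0.14), ESR2 (-0.17 to 0.14), ESRRB (-0.26 to 0.26), NR3C1 (-0.25 to 0.16), NR4A2 (-0.20 to 0.25), NR5A1 (-0.18 to 0.23), NR6A1 (-0.10 to 0.19). None of the 39 turned in any other setting, and the cause was not tested. A further 17 receptors kept their direction but moved by over 1.5 times with 1 array left out, with these ranges: PPARA (0.15 to 0.55), PPARD (0.14 to 0.41), PPARG (0.0155 to 0.80), NR1D1 (-0.47 to -0.0072), NR1D2 (0.0787 to 0.25), RORA (-0.46 to -0.10), NR1H3 (0.0411 to 0.23), RXRB (0.20 to 0.41), RXRG (0.04 to 0.36), NR2E1 (-0.74 to -0.23), NR2F6 (-0.29 to -0.0407), ESR1 (-0.63 to -0.11), ESRRA (-0.45 to -0.18), ESRRG (0.062 to 0.50), NR3C2 (-0.65 to -0.0277), NR4A3 (0.20 to 0.66) and NR5A2 (-0.51 to -0.0283). So did 6 partner genes, which were NCOA7 (0.51 without EP300 vector replicate 2), STS (-0.48 without empty vector replicate 2), SGK1 (-0.51 without empty vector replicate 1), CRABP2 (-0.20 without empty vector replicate 2 and -0.24 without EP300 vector replicate 2), EGR3 (-0.38 without empty vector replicate 3) and DBP (-0.40 without EP300 vector replicate 3). Arrays with the same replicate number in the titles shared little variation. Their deviations from the group means correlated at -0.00153, -0.00528 and -0.00893 for replicates 1, 2 and 3. These correlations cannot show whether the cultures were handled in pairs. With the replicate block the same 3 receptors had an unadjusted p under 0.05, 0 probe sets passed the adjusted threshold and the median difference of the receptors was 0.0128. The mean of several probe sets of a gene was not run, because every receptor had 1. Detection calls were not used here, so receptors below the array median may lie at background, and the number of arrays limits what differences of the observed size can pass.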
